A study of Mus musculus with 12 samples.

Results

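The genes described here are nuclear receptors outside the PPAR, RXR, REV-ERB and ROR groups, together with 4 coregulators that bind such receptors. They were taken from a list of 38 symbols, 34 receptors and 4 coregulators, matched to the gene symbols of the array's annotation. A transcript cluster with 1 symbol was found for 36 of them, 33 receptors and 3 coregulators, among 22180 genes measured in all. Nr1h2, the gene of LXRβ, and Ncor1, the gene of the corepressor NCoR, had no such cluster and were not analysed here. Of the 36, 35 had 1 cluster each and Nr3c2 had more, of which the brighter stood for the gene.

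RNA came from livers of female C57Bl/6 mice aged 12 to 14 weeks, 6 wild-type animals (WT) and 6 with a knockout of Ppara (Ppara KO), and each mouse gave 1 Affymetrix MoGene 2.0 ST array. All animals were kept under 12 hours of light and 12 hours of dark. The knockout construct, the hour of collection and the fed or fasted state are not given in the sources used here. Values are log2 signals, so a difference of 1 is a doubling, and a gene is called higher or lower at a limma p under 0.05 after Benjamini-Hochberg adjustment over all 22180 genes.

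Nuclear receptors are transcription factors that bind DNA, most of them through a zinc finger domain, and many are switched by a small lipid-soluble ligand such as a steroid, thyroid hormone, a bile acid or a foreign compound. Bound receptors recruit coactivators, such as the NCOA proteins, or corepressors, such as NRIP1 (RIP140). In hepatocytes HNF4A maintains the liver programme, FXR (Nr1h4) and SHP (Nr0b2) control bile acid synthesis, CAR (Nr1i3) and PXR (Nr1i2) induce detoxification enzymes, and LXRα (Nr1h3) senses oxysterols. PPARα itself is a member of the same family. The mRNA of several of these receptors is known to vary over the day in mouse liver.

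Ppara, the targeted gene, did not separate the genotypes on this array. It ranged from 7.71 to 8.14 in WT, with a median of 8.05, and from 7.81 to 8.16 in Ppara KO, with a median of 8.04. Where its 1 cluster lies in relation to the deleted or disrupted sequence is unknown here, so it does not check the labels. Liver identity was alike in both genotypes, with 0 of 10 hepatocyte markers (Hnf4a among them) called by limma and their mean level between 10.91 and 11.03 in WT and between 10.85 and 11.01 in Ppara KO. Clock genes stood apart: 13 of 18 rose and 4 fell, and their mean level lay between 6.36 and 6.64 in WT livers and between 7.22 and 7.42 in Ppara KO livers. Adipocyte markers (3 of 8 lower) had a mean level of 5.37, 6.13 and 6.12 in WT 1, 3 and 5, against 4.50 to 4.84 in the other WT and 4.28 to 4.56 in Ppara KO animals. Cell cycle genes (7 of 9 lower) had a mean level of 5.02, 5.38 and 5.39 in WT 1, 2 and 3, against 4.48 to 4.59 in the other WT and 3.92 to 4.28 in Ppara KO animals.

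Of the 36 genes, 1 rose and 6 fell in Ppara KO livers, and 29 were not called. Nr1i3, the gene of the xenobiotic receptor CAR, rose 1.68-fold. Esrrg, Hnf4g, Esr1, Nrip1, Thra and Nr2c1 fell, from 1.69-fold for Esrrg, the gene of oestrogen-related receptor γ, to 1.22-fold for Nr2c1, the gene of the orphan receptor TR2. Over all genes 10.2% were called, 4.46% higher and 5.77% lower, and among the 36 the share was 19.4%. Brighter genes were called more often on this array. Among the 15 members with a WT log2 signal at or above 7, 4 were called (26.7%), against 23.6% of all 4061 genes at that signal. For signals from 5 to 7 the numbers were 2 of 10 members against 15.6% of all 5689 genes, and under 5 they were 1 of 11 against 3.38% of 12430. From 5 upward the share of members called lay near that of all genes at matched signal. Under 5 it was higher, through 1 gene, Hnf4g, and the ranges hold too few members to tell a difference. In 4 of the 36 the genotypes did not overlap, 1 higher and 3 lower in Ppara KO, and over all genes 6.51% did not overlap. This share also depends on signal. At or above 7, 1 higher and 2 lower of 15 members did not overlap, against 322 higher and 423 lower of all 4061 genes. From 5 to 7, 0 higher and 1 lower of 10 members did not overlap, against 198 higher and 331 lower of all 5689 genes. Nr1i3 and Esrrg were the 2 called genes with a change of at least 1.5-fold, which 2.29% of all genes reached with a call. That last share is not matched for signal. The median difference of the 36 was -0.002 and that of all genes 0.009.

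**Figure D1:**
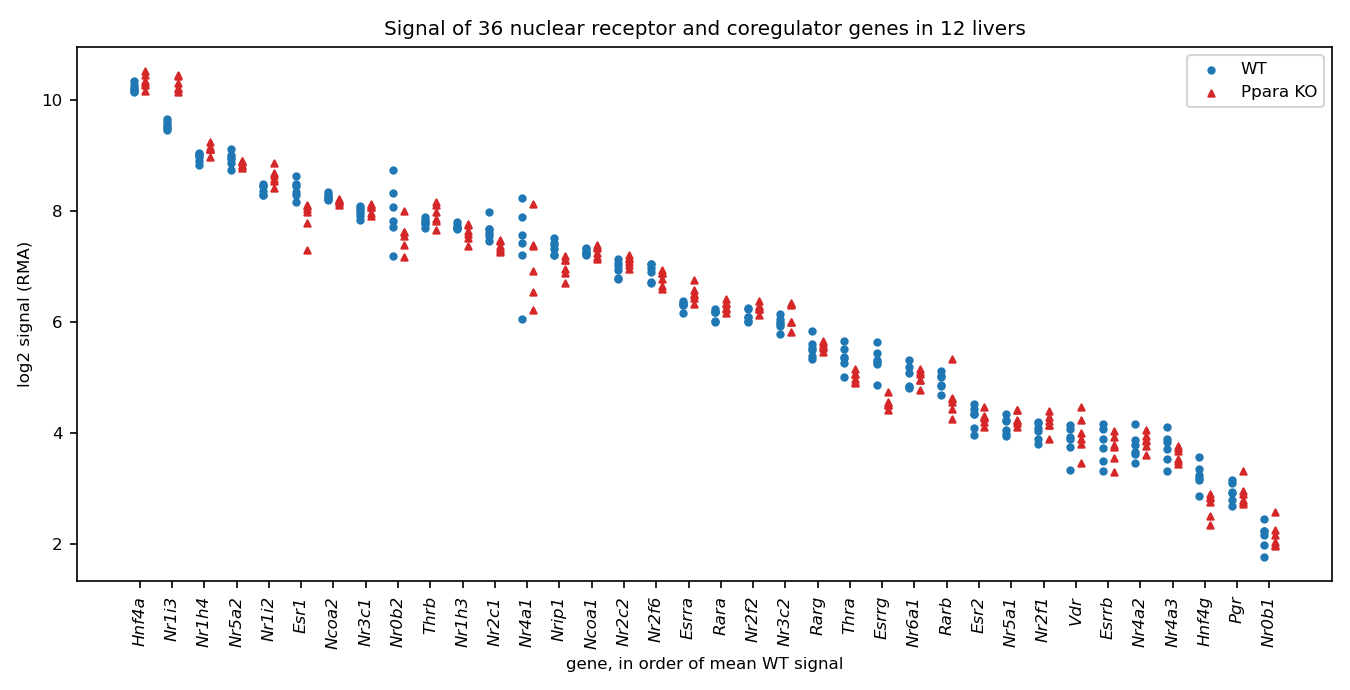
Log2 signal (vertical axis) of the 36 genes in every animal, ordered by mean WT signal from Hnf4a (10.21) to Nr0b1 (2.14), with WT as circles and Ppara KO as triangles, 6 animals each. The 6 triangles of Nr1i3 lie above its circles, those of Esr1, Nrip1 and Esrrg lie below, and Nr4a1 and Nr0b2 spread widest within a genotype.

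In order of WT signal, Hnf4a came first at 10.21 ± 0.07 (mean ± SD, n = 6), brighter than 98.5% of all genes. It was followed by Nr1i3 (9.54 ± 0.08), Nr1h4 (8.96 ± 0.08), Nr5a2 (8.93 ± 0.13), the gene of the bile acid and steroid regulator LRH-1, Nr1i2 (8.39 ± 0.08) and Esr1 (8.38 ± 0.17), the gene of oestrogen receptor α. Nr1h4 and Nr5a2, and likewise Nr1i2 and Esr1, differed by less than their spread between animals. This is an order of array signals, which also depend on the probes of each gene, and not of mRNA amounts. The next signals were those of Ncoa2 (8.25), Nr3c1 (7.97), the gene of the glucocorticoid receptor, Nr0b2 (7.97), Thrb (7.79), the gene of the main thyroid hormone receptor of liver, and Nr1h3 (7.71).

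At the other end lay receptors known from other tissues. Nr0b1 (DAX1, of steroid-producing glands) had a WT signal of 2.14 ± 0.24, Pgr, the progesterone receptor gene, 2.93 ± 0.18, and Hnf4g, an HNF4A paralogue known from gut and pancreas, 3.23 ± 0.23. Nr4a3, Nr4a2, Esrrb, Vdr, Nr2f1, Nr5a1 and Esr2 followed, from 3.73 to 4.28, all below the median of 4.57 over all genes. The deposited table carries no detection call, so whether such a signal exceeds background was not tested. The order was nearly the same in Ppara KO livers, where Hnf4a and Nr1i3 again came first and Nr0b1 last.

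CAR, encoded by Nr1i3, is held in the cytoplasm of hepatocytes and moves to the nucleus after drug exposure, where it pairs with RXR. Its signal was lowest at 9.45, with a median of 9.53 and a highest value of 9.66, in WT, and ran from 10.14 over a median of 10.26 to 10.45 in Ppara KO. The highest WT liver stayed below the lowest Ppara KO liver. The difference was 0.75 ± 0.071 (Ppara KO minus WT, log2, limma SE, as after every ± that follows a difference), with a 95% interval of 0.59 to 0.90 and an adjusted p of 8.11e-06, and 6 of 6 Ppara KO animals were above every WT animal. It ranked 76 of 22180 genes by p. The call held in each of 24 alternatives, with differences of 0.71 to 0.77 and adjusted p-values up to 0.00112. The 3′ end of Nr1i3 shares 1044 bases with Tomm40l in the RefSeq annotation, and Tomm40l, with a difference of -0.26 and an adjusted p of 0.110, was not called.

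The sequence in front of Nr1i3 is shown because it is the one promoter among the called genes in which a searched motif was found. These are the 214 bases before the annotated gene start in RefSeq's GRCm38.p6 annotation, chr1:171213720-171213933 on the plus strand. Capitals mark the E-box, the motif through which CLOCK and BMAL1 act on DNA, which begins 208 bases before the gene start:
Nr1i3: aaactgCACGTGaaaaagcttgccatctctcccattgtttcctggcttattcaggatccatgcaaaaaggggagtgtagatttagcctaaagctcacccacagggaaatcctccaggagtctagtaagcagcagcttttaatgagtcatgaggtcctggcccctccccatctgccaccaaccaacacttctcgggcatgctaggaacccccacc

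Promoter windows of 250 bases before an annotated start were searched on both strands for the E-box CACGTG, for AGGTCA, the core motif bound by many nuclear receptors, and for TTATGTAA, a D-box bound by DBP and TEF. RefSeq listed 47 such windows for 31 of the 36 genes, of which some overlap, since a gene can have several starts. An E-box stood in 5 of the 47, against 6.02% of all 32851 windows, AGGTCA in 6, against 14% of all, and TTATGTAA in 0, against 0.819% of all. Among the 10 windows of called genes (Nr1i3, Esr1, Esrrg, Nr2c1 and Nrip1) 1 held an E-box and 0 held either of the other motifs. Hnf4g and Thra had no window in the table. The 5 E-box matches are set beside each other with up to 20 bases on each side, kept inside the window, of which that of Nr1i3 alone belongs to a called gene:
Nr1i3: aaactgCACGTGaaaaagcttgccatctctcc
Nr0b2: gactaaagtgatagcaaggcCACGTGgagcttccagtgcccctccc
Thrb: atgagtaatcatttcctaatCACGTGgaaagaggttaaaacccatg
Rara: gggtaaagtttcagcctctgCACGTGactc
Esr2: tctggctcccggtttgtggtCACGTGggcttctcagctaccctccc
On GRCm38.p6 these lie at chr1:171213720-171213751 (plus strand, Nr1i3), chr4:133553161-133553206 (plus, Nr0b2), chr14:17981431-17981476 (plus, Thrb), chr11:98937688-98937717 (plus, Rara) and chr12:76177306-76177351 (minus, Esr2). The windows of Nr1i3, Thrb and Rara belong to starts inside these genes, and the E-box of Nr1i3 lies 244 bases before the start used for its window. The differences of the other 4 genes were -0.42 for Nr0b2, 0.13 for Thrb, 0.15 for Rara and -0.01 for Esr2, with adjusted p-values of 0.247, 0.392, 0.186 and 0.977. A match of letters is a description of the window and not evidence of binding.

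Dbp, the clock output factor of the D-box, had a median of 6.26 in WT and 9.98 in Ppara KO, and Arntl, the gene of BMAL1, fell by 2.78 (SE 0.26). Nr1i3 is among the receptors known to follow the clock in liver. Genotype and clock state cannot be told apart in this design, because the mean levels of the clock genes given above do not overlap between the genotypes.

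**Figure D2:**
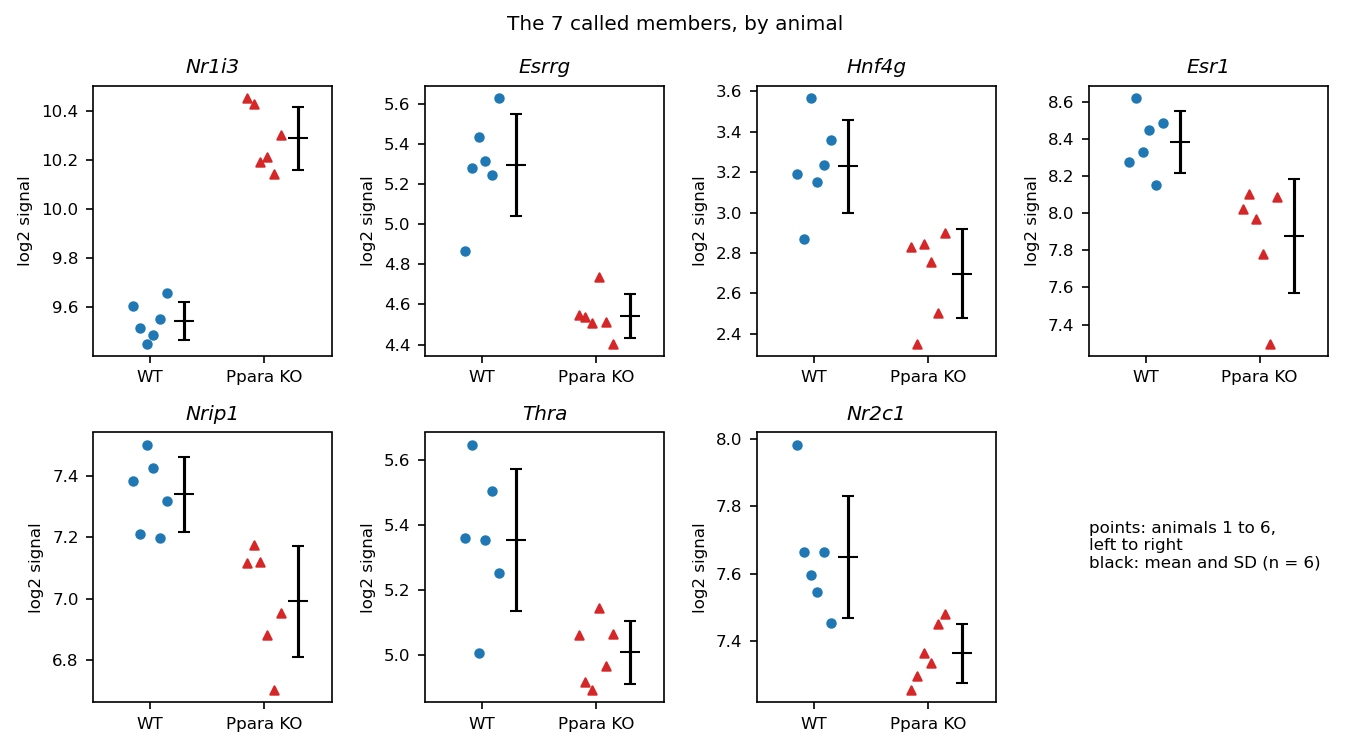
Log2 signal of the 7 called genes in each animal, one panel per gene, with animals 1 to 6 from left to right and the mean and SD (n = 6) in black. The groups do not overlap for Nr1i3, Esrrg, Esr1 and Nrip1, and do overlap for Hnf4g, Thra and Nr2c1, and each panel has its own scale.

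ERRγ, the product of Esrrg, is an orphan receptor of mitochondrial and hepatic metabolic genes. Esrrg had WT values from 4.86 to 5.63 with a median of 5.30, and Ppara KO values from 4.40 to 4.74 with a median of 4.52. All 6 Ppara KO livers were below the lowest WT liver, WT 1. The difference was -0.75 ± 0.10, with a 95% interval of -0.98 to -0.53 and an adjusted p of 2.86e-04, and the call held in each of 24 alternatives. Neither of its relatives was called. Esrra, which encodes ERRα, had medians of 6.31 in WT and 6.49 in Ppara KO, and its difference of 0.22 ± 0.075 was not called (adjusted p 0.0851), although it was called higher with repeated quantile normalization and when dim genes were left out. Esrrb, at 3.78 in WT, differed by -0.06 ± 0.15 (adjusted p 0.880).

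Esr1 mediates most of the response of liver to oestrogen. Its signal ran from 8.15 to 8.62 in WT, with a median of 8.39, and from 7.30 to 8.10 in Ppara KO, with a median of 7.996, so the groups did not overlap. Ppara KO 5 was the lowest liver at 7.30, and the others of its group were at 7.78 or above. The difference was -0.51 ± 0.13 (adjusted p 0.0187), and -0.39 ± 0.092 without Ppara KO 5 (adjusted p 0.0156). The call ended without WT 1, 2 and 3 together, the animals high in cell cycle genes (-0.48 ± 0.17, adjusted p 0.143). It held without WT 1, 3 and 5 together (-0.64 ± 0.16, adjusted p 0.0432). The part of the cell cycle genes in the result was not tested, and either fit has fewer animals and a larger SE. Of the other steroid receptors none was called by limma: Esr2, the oestrogen receptor β gene, differed by -0.01 ± 0.097, Pgr by -0.02 ± 0.11, Nr3c1 by 0.06 ± 0.067, and Nr3c2, the mineralocorticoid receptor gene, by 0.16 ± 0.098. The dimmer cluster of Nr3c2 differed by 0.05. Of these 4 genes, none had an unadjusted p under 0.05, and the smallest was 0.128 for Nr3c2.

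Hnf4g had WT values from 2.87 to 3.57 (median 3.21) and Ppara KO values from 2.35 to 2.90 (median 2.79). The groups overlapped through the lowest WT liver, WT 2. The difference was -0.53 ± 0.12 (adjusted p 0.00934), at a signal that 25.4% of genes do not exceed. With WT 1, 3 and 5 left out, whose adipocyte markers were high, it was -0.43 and no longer called (adjusted p 0.119), and the part of these markers in the result was not tested. Without WT 1, 2 and 3 it was -0.55 and still called (adjusted p 0.0317), as it was with any 1 animal left out. Hnf4a, the far brighter paralogue, ran from 10.14 to 10.34 in WT and from 10.15 to 10.51 in Ppara KO. Its difference of 0.12 ± 0.071 was not called (adjusted p 0.360), and the 95% interval of -0.03 to 0.27 excludes a change of 1.5-fold in either direction.

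NRIP1, also named RIP140, is a corepressor of many nuclear receptors and of fat and mitochondrial genes. Nrip1 ran from 7.20 to 7.502 in WT (median 7.35) and from 6.70 to 7.18 in Ppara KO (median 7.04), with every Ppara KO liver below every WT liver. The difference was -0.35 ± 0.088 (adjusted p 0.0201). It was -0.33 without WT 1, 3 and 5 (adjusted p 0.136) and -0.32 without WT 1, 2 and 3 (adjusted p 0.152), and in neither case called. The 2 measured coactivator genes of the p160 family were not called. Ncoa1 differed by 0.002 ± 0.063, with a 95% interval of -0.13 to 0.14, and Ncoa2 by -0.08 ± 0.056, with an interval of -0.20 to 0.04. Both had tight groups: Ncoa2 lay between 8.10 and 8.34 in all 12 livers.

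Thra encodes thyroid hormone receptor α and, by other splicing, a form that does not bind hormone. Its values ran from 5.01 to 5.65 in WT (median 5.36) and from 4.89 to 5.14 in Ppara KO (median 5.02). WT 3, at 5.01, lay within the Ppara KO range. The difference was -0.35 ± 0.095 (adjusted p 0.0302), and the call ended without WT 1, 2 or 5 or Ppara KO 2, 3 or 5, each left out alone, with differences of -0.29 to -0.35 and adjusted p-values of 0.0545 to 0.0670. It also ended with the replicate number as a block (adjusted p 0.0519). The end of Thra shares 1075 bases (chr11:98767932-98769006 on GRCm38.p6) with Nr1d1, the REV-ERBα gene. Nr1d1 moved the other way, by 1.10 ± 0.29 (adjusted p 0.0223), and whether probes in the shared stretch contribute to the value of Thra was not tested. Thrb differed by 0.13 ± 0.084 and was not called (adjusted p 0.392).

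Nr2c1 overlapped between the genotypes. It ran from 7.45 to 7.98 in WT (median 7.63) and from 7.25 to 7.48 in Ppara KO (median 7.35), and the highest liver was WT 1. The difference of -0.29 ± 0.084 had an adjusted p of 0.0412. That call ended in 15 of 24 alternatives, among them leaving out WT 1, 2, 3 or 5 or Ppara KO 1, 2, 3 or 4 alone (differences of -0.22 to -0.30, adjusted p-values of 0.0611 to 0.0865). Without WT 1, 3 and 5 together it was -0.19, as it was without WT 1, 2 and 3. Nr2c2, its close relative TR4, differed by 0.14 ± 0.076 and was not called (adjusted p 0.283). The COUP-TF genes were not called either: Nr2f1 differed by 0.14 ± 0.093, Nr2f2, which is also expressed in vessel cells, by 0.14 ± 0.066, and Nr2f6 by -0.11 ± 0.085.

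**Figure D3:**
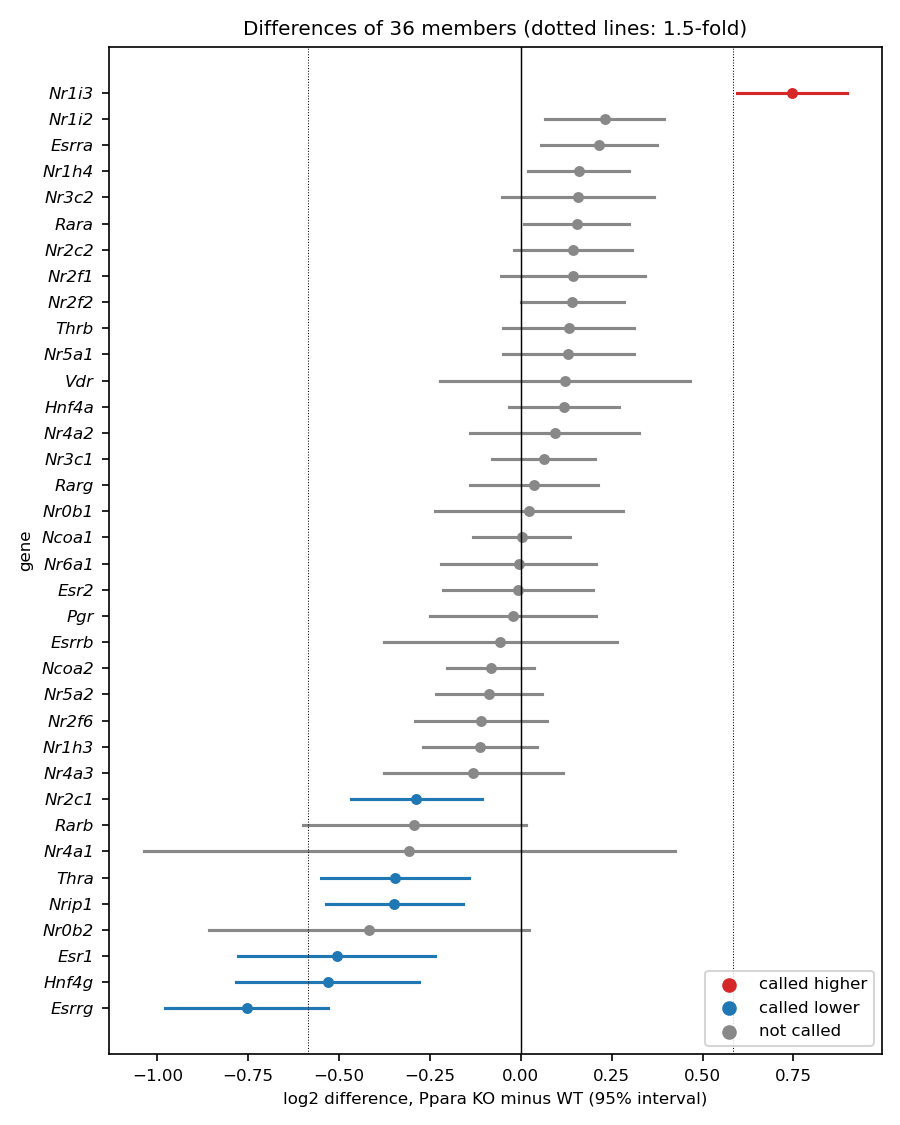
Difference between Ppara KO and WT in log2 units (horizontal axis, points) with its 95% interval (lines) for the 36 genes, ordered by size, with dotted lines at a 1.5-fold change. Nr1i3 lies at 0.75 with its whole interval beyond the dotted line, Esrrg at -0.75, and the intervals of Nr4a1 and Nr0b2 are the widest among genes that were not called.

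Nr1h4, Nr0b2, Nr5a2, Nr1h3 and Nr1i2 showed small or uncertain differences. Nr1h4 ran from 8.82 to 9.03 in WT and from 8.97 to 9.24 in Ppara KO, which came to 0.16 ± 0.065 and was not called (adjusted p 0.152). Nr0b2, the gene of SHP, an FXR target that lacks a DNA-binding domain, varied from 7.18 in WT 4 to 8.73 in WT 5, and from 7.16 to 7.99 in Ppara KO. Its difference of -0.42 ± 0.21 was not called (adjusted p 0.247), and the 95% interval runs from -0.86 to 0.02. It was -0.27 without WT 5 and -0.14 without WT 1, 3 and 5, and neither was called. Other alternatives made it larger: over all 24 it ran from -0.58 to -0.14. None of them was called, with adjusted p-values from 0.0543 up. The pooled SD within a genotype was 0.42, larger than for 98.9% of genes. Nr5a2 differed by -0.09 ± 0.069 and Nr1h3 by -0.11 ± 0.074, both without a call. PXR, the partner of CAR in drug sensing, is encoded by Nr1i2, whose WT livers lay between 8.29 and 8.48 and Ppara KO livers between 8.41 and 8.86. The difference of 0.23 ± 0.077 missed the threshold (adjusted p 0.0731). Nr1i2 was called in 4 of 24 alternatives, one of them without Ppara KO 4 (0.27, adjusted p 0.0370).

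Retinoic acid and vitamin D receptor genes were not called. Rara differed by 0.15 ± 0.068 (adjusted p 0.186) and Rarg by 0.04 ± 0.083. Rarb, a receptor gene that retinoic acid itself induces, ran from 4.68 to 5.12 in WT and from 4.25 to 4.63 in 5 Ppara KO livers, while Ppara KO 6 stood at 5.33. The difference was -0.29 ± 0.14 with all animals (adjusted p 0.243) and -0.43 ± 0.094 without Ppara KO 6 (adjusted p 0.0113). Vdr differed by 0.12 ± 0.16, at WT values of 3.33 to 4.14.

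The NR4A genes, which respond within minutes to hormones and stress without a known ligand, were not called. Nr4a1 spread more widely within a genotype than 99.9% of genes, with a pooled SD of 0.72. It ran from 6.05 in WT 6 to 8.23 in WT 2, and from 6.20 in Ppara KO 3 to 8.12 in Ppara KO 5. Its difference of -0.31 ± 0.34 had an interval of -1.04 to 0.42, so at this spread a change of 2-fold lower could not be told from none. Single animals moved the value: it was -0.14 without WT 2, -0.57 without WT 6, and -0.13, -0.20 and -0.51 without Ppara KO 3, 4 and 5, none of them called, with adjusted p-values from 0.267 up. It was -0.15 without WT 1, 3 and 5 and 0.19 without WT 1, 2 and 3. Nr4a2 differed by 0.09 ± 0.11 and Nr4a3 by -0.13 ± 0.12. Nr5a1 (SF-1), Nr6a1 (GCNF) and Nr0b1, known from steroid-producing glands and germ cells, differed by 0.13 ± 0.085, -0.01 ± 0.10 and 0.02 ± 0.12, and none was called.

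Among the 29 genes without a call, the 95% interval stayed within 1.5-fold either way for 26 and within 1.2-fold for 8. The 3 whose interval reached further were Nr0b2, Nr4a1 and Rarb. The median SE of the 36 was 0.0865 and that of all genes 0.0926.

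Several lists hold known receptor targets, immediate early and NR4A-linked genes, genes linked to RIP140, or further coregulators. Together, without members, these are the target and coregulator genes. Of these 196 genes, 51 were called (26%), 25 higher and 26 lower, with a median difference of -0.01. The share among all genes was 10.2%, and among all genes with a WT signal at or above 7 it was 23.6%. The 196 genes were not limited to a range of signal, so neither share is matched to them. The plot of called genes by list shows both directions in 10 of its 14 lists. The lists share some genes, such as Pck1 and Cyp8b1, and a few contain members.

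**Figure D4:**
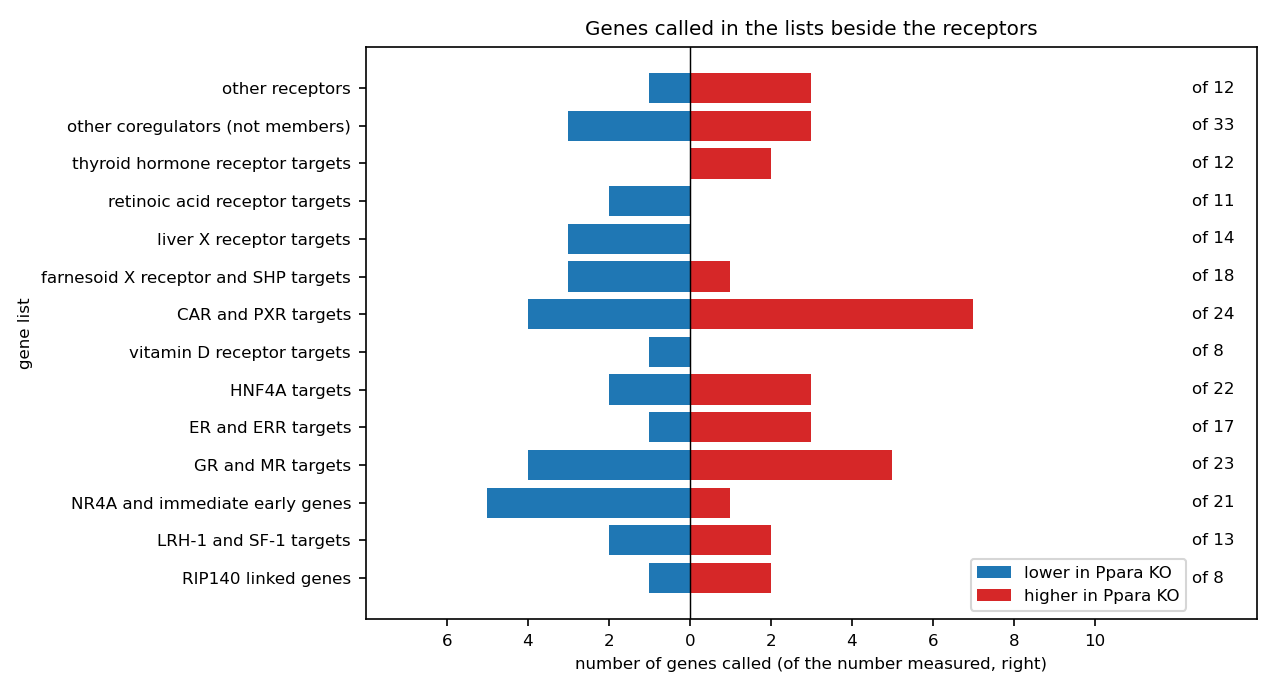
Number of genes called lower (left, blue) and higher (right, red) in Ppara KO in each list, with the number measured at the right edge. Of the lists drawn, that of CAR and PXR had the most calls, 7 higher and 4 lower of 24, and the retinoic acid, liver X and vitamin D receptor lists had lower calls only.

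In the CAR and PXR list, 7 of 24 genes rose and 4 fell, with a median difference of 0.10. Abcc3, a hepatic efflux pump, rose by 0.62 ± 0.069 and the organic anion carrier gene Slco1a4 by 0.83 ± 0.10. Cyp2b10, the P450 most used as a sign of CAR activity, went against the rise of Nr1i3: it had a median of 6.92 in WT and 5.02 in Ppara KO, 3.10-fold lower (adjusted p 2.15e-04). The sulfotransferase gene Sult2a1 fell by 3.09 (SE 0.37). Among genes not called, Cyp2c29 differed by 0.14 and Aldh1a1 by -0.11.

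Thyroid hormone receptor targets had 2 rises and 0 falls among 12, Thrsp (0.93 ± 0.13), a lipogenic gene, and Pck1 (0.30 ± 0.086), a gluconeogenic enzyme gene. The median of the 12 differences was -0.13, opposite in sign to these calls. Of 11 retinoic acid receptor targets 2 fell, the retinal reductase gene Dhrs3 (-0.64 ± 0.063) and the transglutaminase gene Tgm2 (-0.37 ± 0.10), and 0 rose. The median of the 11 was 0.13, again opposite in sign to the calls. Of 14 liver X receptor targets 3 fell and 0 rose: Pltp, the phospholipid transfer protein gene (-0.81 ± 0.12), the desaturase gene Scd1 (-0.42 ± 0.11) and Lpl, the lipoprotein lipase gene (-0.65 ± 0.19). The median of the 14 was 0.04. Lpl is also abundant in adipocytes, whose markers were high in WT 1, 3 and 5, and their part in its difference was not tested.

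Of 18 FXR and SHP targets 3 fell and 1 rose, with a median difference of -0.05. Abcb11, the bile salt export pump gene, fell by 0.72 (SE 0.13), Cyp8b1, a sterol hydroxylase gene of bile acid synthesis, by 0.70 (SE 0.16), and Fgg, a fibrinogen chain gene, by 0.25 (SE 0.057), while Ces1d, a carboxylesterase gene, rose by 0.46 ± 0.13. Of 13 LRH-1 and SF-1 targets 2 rose, Cyp17a1 (0.36 ± 0.074) and Plk3 (0.61 ± 0.17), and 2 fell, Cyp8b1 and Fgf21, a hepatic hormone gene (-1.37 ± 0.31), and the median was -0.05. HNF4A targets had 3 rises and 2 falls among 22, with a median of 0.03. Proc, the protein C gene (0.28 ± 0.065), and Apoa4 (0.38 ± 0.10) rose, G6pc, the glucose-6-phosphatase gene, fell (-0.61 ± 0.17), and the bright Ttr and Apoa2 differed by -0.02 and 0.01. Of 8 vitamin D receptor targets 1 fell, Cdkn1a (-1.95 ± 0.31), a cell cycle inhibitor gene with many other regulators, and the median was 0.02.

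Of 17 targets of oestrogen and oestrogen-related receptors 3 rose and 1 fell, with a median difference of 0.05. Lpin1, a phosphatidate phosphatase gene, rose by 1.06 ± 0.21, Cyp17a1 by 0.36, Acadm, a medium-chain dehydrogenase gene, by 0.20 ± 0.059, and the protease gene Ctsd fell by 0.25 (SE 0.064). Of 23 glucocorticoid and mineralocorticoid targets 5 rose and 4 fell, among them Per1, also a clock gene (1.47 ± 0.15), and Tdo2, a tryptophan enzyme gene (0.41 ± 0.067), and Igfbp1 (-1.16 ± 0.16) and Cdkn1a. Tat, a classical glucocorticoid target, differed by 0.11 and was not called, and the median of the 23 was -0.04.

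Among 21 immediate early and NR4A-linked genes 5 fell and 1 rose, with a median difference of -0.05. Fos ran from 5.08 to 6.79 in WT and from 4.47 to 5.04 in Ppara KO (-1.24 ± 0.21), Egr1 differed by -1.27 ± 0.28 and Btg2 by -0.77 ± 0.16, all called lower, and Fbp1, a gluconeogenic enzyme gene, rose by 0.21 ± 0.058. Nr4a1, an immediate early gene as well, was not called. Of 8 genes linked to RIP140, Pck1 and Tnf (0.44 ± 0.11) rose and Plin4, a droplet coat gene that is also an adipocyte marker, fell (-0.68 ± 0.16). The median of the 8 differences was -0.43, opposite in sign to most of the calls, and the mean level of the list was 7.12, 7.47 and 7.26 in WT 1, 3 and 5. It lay between 6.41 and 6.63 in the other WT livers and between 6.47 and 6.73 in Ppara KO livers. WT 1, 3 and 5 are also the livers with high adipocyte markers, and the part of those markers in this list was not tested.

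Of 33 further coregulators 3 rose and 3 fell, with a median difference of -0.05. The falls were small and belonged to chromatin factors, Arid1a (-0.31 ± 0.059) and Smarca4 (-0.23 ± 0.055) of the SWI/SNF remodelling complex and the acetyltransferase gene Kat2a (-0.24 ± 0.056). Smarca2, the alternative ATPase of the same complex, rose by 0.35 ± 0.075, as did the coactivator genes Ppargc1b (0.39) and Pprc1 (0.32). Crebbp and Trim24 differed by -0.07 and -0.04 and were not called.

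Among the 12 measured receptors of the family that are not members, 3 rose and 1 fell. Nr1d2 rose by 1.97 ± 0.13, Nr1d1 by 1.10 ± 0.29 and Pparg by 0.70 ± 0.11, and Ppard fell by 1.47 (SE 0.13), while Rxra, the common partner of many members, differed by 0.05. In whole liver, fewer cells of a type and less RNA per cell cannot be told apart for any of these genes.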

How the data were processed

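Values were read from the deposited table of 41345 transcript clusters on 12 arrays. Per the submitters' processing notes the authors made these log2 values with RMA and Partek, with no version given, and RMA corrects background, brings arrays to a common distribution and summarises probes. A shift shared by most genes would be removed, and differences of dim genes are compressed. Array medians lay between 4.13 and 4.17.

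The platform annotation gave 23521 clusters 1 gene symbol and 1814 several, and 16010 were unlisted. The cluster with the highest mean stood for a gene, which left 22180 genes. limma 3.58.1 under R 4.3.3 tested each gene (1 mean per genotype, no covariate, eBayes, 2-sided, Benjamini-Hochberg), and the script was checked on simulated data. Precision is limited by there being 6 arrays a genotype.

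The members and the gene lists were chosen with earlier results of these data known, and each target or coregulator list is described by its counts, its median and named genes, with no test of the list. Every member is named. Of each list, the text names at most 4 called genes, taken by adjusted p, and at most 2 bright genes without a call, and further genes where a count of 5 or fewer is given were named after their values were seen. The circadian and cell type lists are given mainly as levels. Same-numbered WT and Ppara KO animals deviated from their group means with correlations between -0.05 and 0.04, so no pairing by number was seen. The labels give no pairing, and these correlations cannot exclude one. Sequences are from RefSeq, GRCm38.p6, and 31 of the 36 genes matched the promoter table by symbol.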

Additional observations from a re-analysis of the deposited data

Results flagged for a closer look

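In 72 groups of 6 animals, 1 per gene and genotype, 2 held an animal whose gap to the nearest other was too wide a share of the group's range by Dixon's test at the 95% level, where chance gives about 1 in 20. Rarb stood at 5.33 in Ppara KO 6, against 4.25 to 4.63 in the other Ppara KO livers. Esrra stood at 6.15 in WT 1, against 6.30 to 6.37 in the other WT livers, and its difference was not called with or without that animal.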

How the results depend on the processing

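The 7 called genes kept their direction in all 24 alternatives (23 for Hnf4g, which the filter on dim genes removes), and the 36 members and counts were recomputed in each. Some alternatives, such as other thresholds, the robust prior and the replicate block, return the main difference unchanged. In those the direction could not turn. Leaving animals out could not turn it for Nr1i3, Esrrg, Esr1 and Nrip1 either, since their genotypes did not overlap. Called members higher in Ppara KO numbered 2 with a robust prior and trend, 3 with repeated quantile normalization, 3 with the dimmer genes left out and 1 to 2 with 1 animal left out. With those settings, calls in either direction over all genes numbered 2681, 2336, 2802 and 1817 to 2130, against 2268 in the main one. Leaving out the dimmer genes kept 11090 genes. Called members lower numbered 2 at an adjusted p under 0.01, 1 at a change of at least 1.5-fold, 1 with treat against 1.2-fold, 3 without WT 1, 3 and 5, 3 without WT 1, 2 and 3, and 4 to 7 with 1 animal left out. Over all genes the settings of the lower counts gave 1070, 508, 329, 1008, 882 and 1817 to 2130 calls. Among target and coregulator genes they gave 24, 24, 14, 20, 20 and 41 to 49. Leaving out 3 animals leaves fewer samples. The labels do not say whether the replicate number pairs animals. With that number as a block, 1672 genes, 1 higher and 4 lower members and 35 target and coregulator genes were called. Signs turned only for genes that were not called: Esr2 (0.000785 with centred arrays), Nr6a1 (0.0116 with quantile normalization, 0.00282 with centred arrays, 0.0624 without WT 1, 3 and 5), Nr0b1 (-0.12 without WT 1, 3 and 5), and, without WT 1, 2 and 3, Nr0b1 (-0.15), Esrrb (0.0158), Nr4a1 (0.19), Nr4a3 (0.0786) and Ncoa1 (-0.0114). With 1 animal left out, differences ran from -0.0709 to 0.0415 for Esr2, -0.15 to 0.0279 for Esrrb, -0.10 to 0.0243 for Pgr, -0.0473 to 0.0543 for Nr6a1, -0.0597 to 0.0847 for Nr0b1, -0.0208 to 0.0282 for Ncoa1 and -0.00413 to 0.10 for Rarg. The cause of these changes was not tested.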

Other observations

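Markers of other cells in and beside the liver were mostly not called. Of 11 endothelial and 12 stellate cell and fibroblast markers 0 were called by limma at the adjusted threshold, and of 11 Kupffer cell and macrophage markers 1 rose, Cd5l (0.45 ± 0.13). Among 9 lymphocyte markers Cd8a rose (0.46 ± 0.10), among 7 neutrophil and mast cell markers Kit, a receptor tyrosine kinase gene, fell by 0.55 (SE 0.097), and among 5 cholangiocyte markers Krt19 and Sox9 fell by 0.26 and 0.39. Of 5 gut epithelium genes 1 fell, Lgals4, a galectin gene (-1.30 ± 0.14, 2.47-fold lower), and of 5 pancreas genes 0 were called. Of 10 genes of steroid-producing tissue and germ cells, Sox2 rose (0.35 ± 0.11) and Gata4, also present in liver vessel and stellate cells, fell by 0.33 (SE 0.095).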
